A study of Homo sapiens with 4 samples.

Results

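The RAB proteins are small GTPases that direct membrane traffic, and the family was read from a table of gene levels in U937 cells. Members were all protein-coding genes of the GENCODE annotation whose symbol is RAB with a number and at most one further letter and digit, which left out RAB-binding proteins and pseudogenes and used no measured value. The rule gave 63 genes. The table, which lists 17656 genes, held 51 of them, and 47 passed a filter of at least 1 TPM in at least 2 libraries, as did 14582 of all genes. TPM is a gene's share of a library's transcripts after division by transcript length, so levels of different genes can be set side by side on that scale. By the place where they are known to act, the 63 members were put into secretory (31), endosomal (16), late endosomal and lysosomal (11) and other (5) classes, and the secretory class was divided into an ER and Golgi group (18) and an exocytosis and granule group (13).

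A RAB protein switches between a GDP-bound form in the cytosol and a GTP-bound form on a membrane, where it gathers effectors that move, tether or fuse vesicles. Exchange factors (GEFs) load it with GTP, GTPase-activating proteins (GAPs) return it to the GDP form, and an escort protein and GDI handle its lipid anchor. In monocytes and macrophages, endosomal members carry incoming cargo and phagosomes inwards, late endosomal members pass it to lysosomes, and secretory members bring granules and receptors to the surface.

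U937 is a human monocytic cell line derived from a histiocytic lymphoma, and 4 libraries of its total RNA were sequenced. According to the labels, 2 libraries (sh-ZNF217) come from cells with ZNF217 knocked down, ZNF217 being a transcription factor with zinc fingers that recruits corepressors, and 2 libraries (NC) come from cells given no treatment. The study made knockdowns with lentiviral short hairpin RNA in a puromycin vector and also describes CRISPR/Cas9 knockout lines, and its text ascribes the sequenced U937 cells to a knockout, so which of these was sequenced could not be settled and neither group can be tied to a clone. Separate cultures are not stated in the labels, so each p-value rests on the spread between samples of a group (n = 2 each) that could be technical alone.

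ZNF217 had 35.8 and 35.0 TPM in libraries labelled sh-ZNF217, against 36.1 and 36.7 TPM in the NC libraries. Its log2 fold change of -0.04 (95% interval -0.22 to 0.14) had a Benjamini-Hochberg adjusted p of 0.74 in limma. A lower ZNF217 transcript was thus not seen in the libraries named for it, and directions below rest on the labels. MYB, a transcription factor of blood progenitors that the study also examined, fell. Its level was 149 and 146 TPM in libraries labelled sh-ZNF217, against 219 and 239 TPM in NC (log2 fold change -0.63, limma adjusted p = 0.0053). It was chosen after its values were seen. Markers of the monocytic lineage were present, with LYZ at 5511 and 5328 TPM in libraries labelled sh-ZNF217, against 3270 and 3256 TPM in NC. All 9 monocytic markers tested had positive log2 fold changes and 4 of them passed the test upward (ITGAM, CSF1R, CD68 and LYZ), while MPO stayed below 1 TPM in each library. Together the 10 listed markers summed to 6629 and 6545 TPM in libraries labelled sh-ZNF217, against 4166 and 4191 TPM in NC. The erythroid and megakaryocyte list and the epithelial and fibroblast list had 0 of 6 genes each in the table, and CD3D and CD3E, which define T cells, were not listed. The T and NK cell list had 2 of 6 genes in the table (NKG7 and CD2), with sums of 100.7 and 110.3 TPM in libraries labelled sh-ZNF217 and 86.3 and 69.1 TPM in NC, and CD2 alone had 3.77 and 5.33 TPM, against 1.12 and 1.68 TPM. The part of these markers in the RAB values was not tested, and in bulk RNA fewer cells with a transcript cannot be told apart from less of it per cell. Read depth was unknown because TPM keeps none, and 14402 to 14421 genes reached 1 TPM in libraries labelled sh-ZNF217, against 14080 to 14101 in NC.

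U937 cells held a broad set of RAB transcripts. The family summed to 2647 and 2622 TPM in libraries labelled sh-ZNF217, against 2447 and 2512 TPM in the NC libraries, a ratio of means of 1.06. RAB7A, the RAB of late endosomes and lysosomes, was the most abundant member over all 4 libraries, followed by RAB5C of early endosomes, RAB1B of ER to Golgi transport, RAB31 of traffic from the trans-Golgi network to endosomes, and RAB1A. RAB7A, at 338 to 367 TPM, did not overlap RAB5C, at 214 to 230 TPM, but RAB5C and RAB1B (193 to 220 TPM) did overlap. These 5 genes gave 41.1% and 41.1% of all RAB TPM in libraries labelled sh-ZNF217, against 42.3% and 42.6% in NC. A mean of at least 100 TPM was reached by 7 members, RAB27A and RAB10 of exocytosis being the others, 28 lay between 10 and 100 TPM and 12 tested members lay under 10 TPM. Another 12 members were not listed in the table (RAB3B, RAB6B, RAB9B, RAB15, RAB19, RAB26, RAB34, RAB36, RAB39B, RAB40A, RAB41 and RAB42). RAB25, RAB30, RAB40B and RAB6C were listed at under 1 TPM in 3 or more libraries and were not tested. Exons of 27 of the 47 tested members overlap another annotated gene, and their levels are uncertain to that extent, because it is not known whether counting used the strand.

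**Figure D1:**
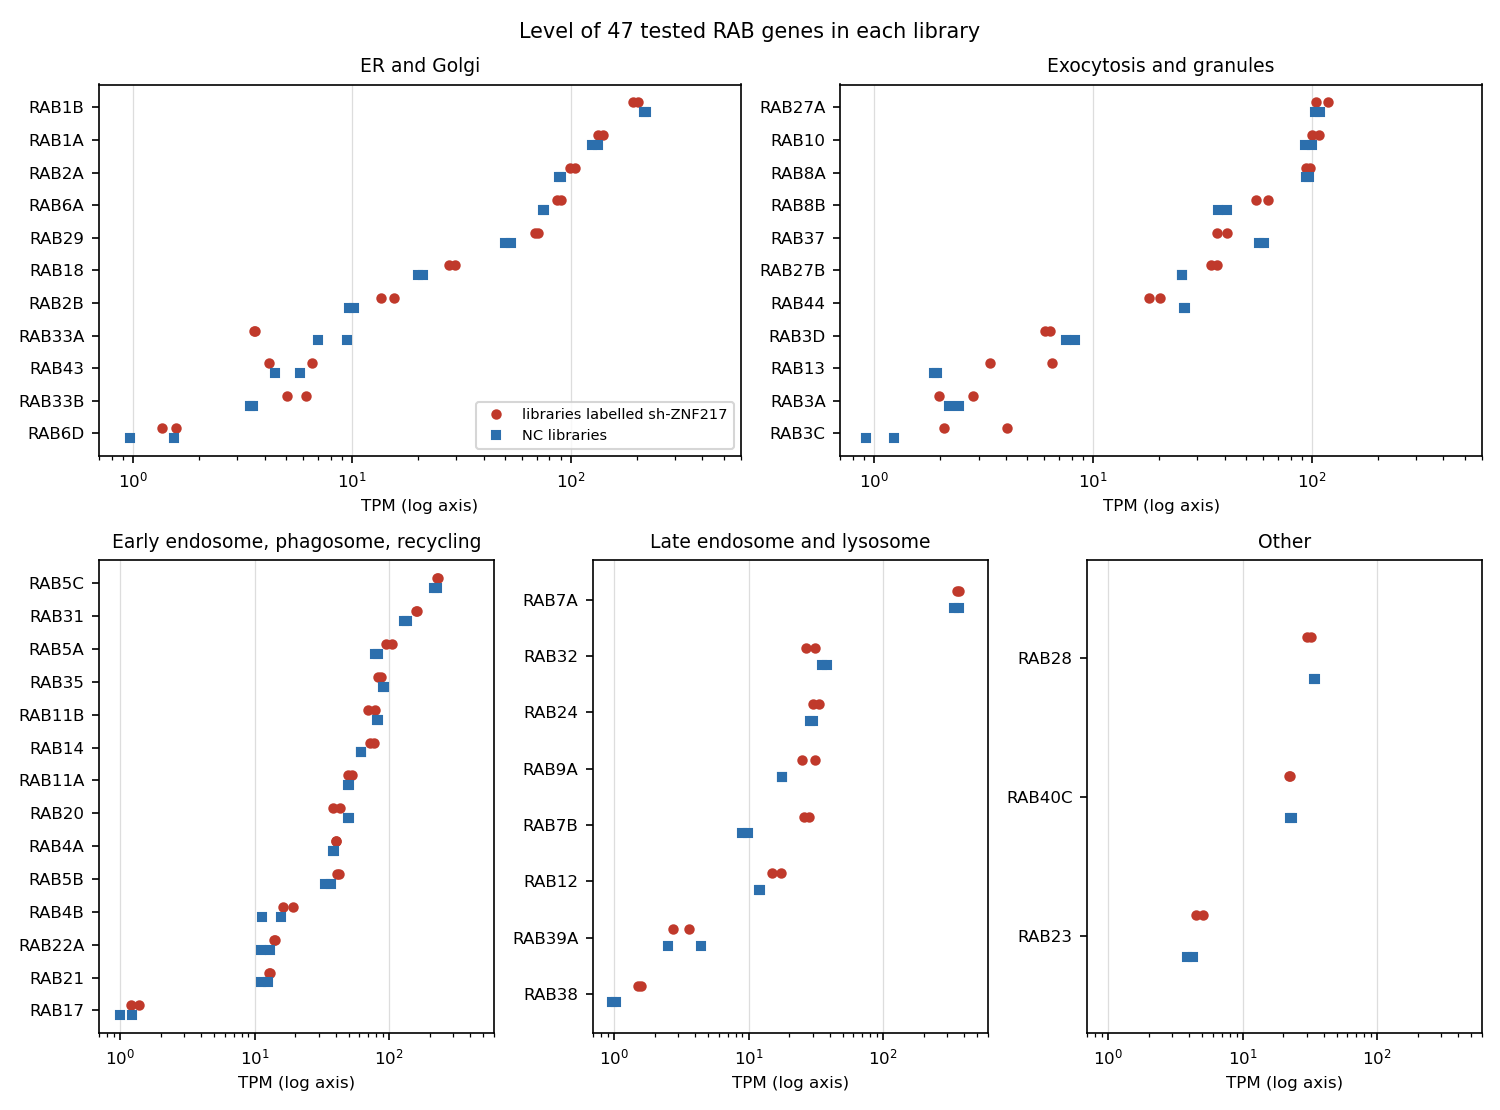
Levels (TPM, log axis) of the 47 tested RAB genes, with 1 red circle for each library labelled sh-ZNF217 and 1 blue square for each NC library, in panels by place in the cell. RAB7A stands at the top at 338 to 367 TPM, and the red and blue points of RAB7B are well apart (25.9 and 27.9 TPM, against 9.91 and 8.92 TPM).

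A few members differed between the groups while most of the abundant ones did not pass the test. Called genes had an adjusted p below 0.05 together with a log2 fold change of TPM + 1 of more than 0.5 in either direction. By this rule 4 RAB genes were higher in the libraries labelled sh-ZNF217 (RAB7B, RAB9A, RAB8B and RAB2B) and 2 were lower (RAB33A and RAB37). That is 6 of 47 tested members, or 12.8%, beside 8.72% of all 14582 genes (6.26% higher and 2.46% lower). With the adjusted p alone, 13 members passed, 10 higher and 3 lower, beside 16.9% of all genes (9.77% higher and 7.11% lower). Both libraries of one group lay beyond both of the other for 37 of the 47 members, 26 higher and 11 lower, beside 62.2% of all genes (33.5% higher and 28.6% lower). The log2 fold change was positive for 35 of 47 members (74.5%), beside 52.5% of all genes, and its median was 0.12, beside 0.02. The median absolute log2 difference between the libraries labelled sh-ZNF217 was 0.112 over the members, beside 0.128 over all tested genes. Between the NC libraries it was 0.0767, beside 0.122, and across the groups it was 0.21 to 0.308, beside 0.243 to 0.253. Leaving out sh-ZNF217 replicate 1 reduced the count of called members to 1, leaving out NC replicate 2 to 3, and leaving out either of the remaining libraries to 4, and with limma's untrended, non-robust moderation it was 1. RAB7B kept its call in each of those fits.

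**Figure D2:**
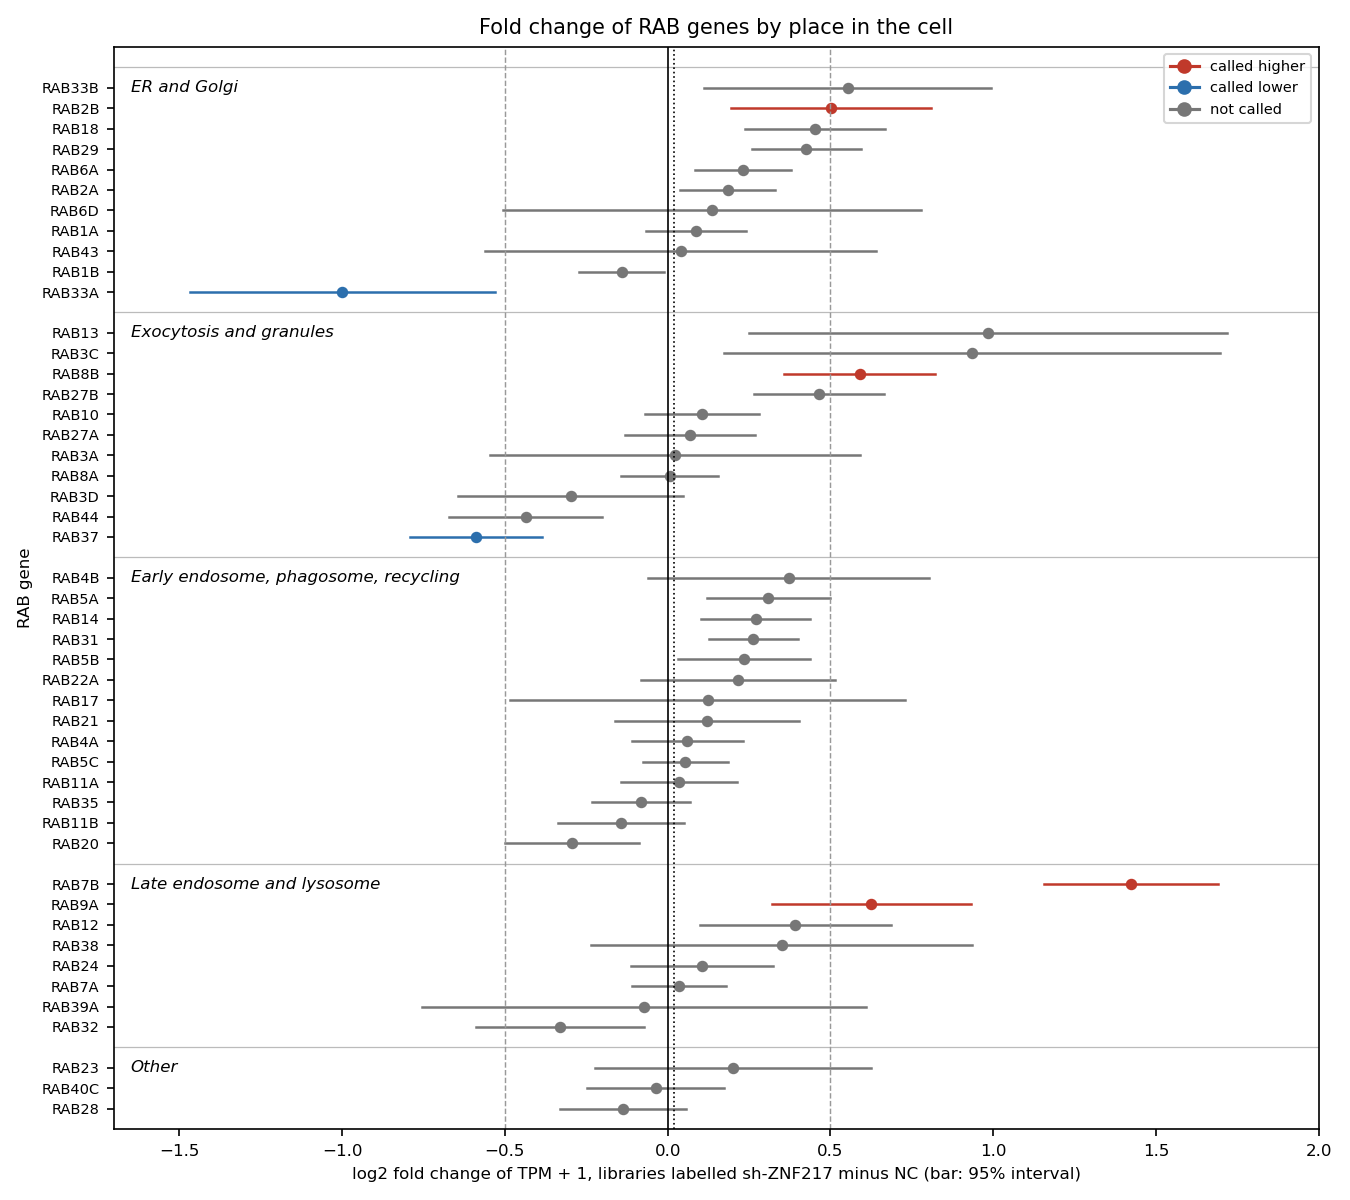
Differences in log2(TPM + 1), sh-ZNF217 libraries minus NC libraries, for the 47 tested RAB genes, with bars for the 95% interval from limma, dashed lines at the fold minimum of 0.5 and a dotted line at the median of all genes, 0.02. Red marks the 4 members called higher, blue the 2 called lower, and RAB7B stands furthest to the right at 1.42.

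The late endosomal and lysosomal class held the largest change of the family. RAB7B and RAB9A rose, RAB7A did not pass the test and RAB32 had a negative fold change that missed it. Over the class, 2 of 8 tested members were called higher and 0 lower in limma (25%, beside 8.72% of all genes). At an unadjusted p below 0.05 there were 3 and 1, 6 of 8 had a positive log2 fold change, and the median was 0.23. RAB7B, a member known from myeloid cells that guides traffic from late endosomes to the trans-Golgi network, had 25.9 and 27.9 TPM in libraries labelled sh-ZNF217, against 9.91 and 8.92 TPM in the NC libraries. Both values stood far above both NC values, and the means, 26.9 ± 1.44 TPM in libraries labelled sh-ZNF217 and 9.41 ± 0.7 TPM in NC (SD, n = 2 each), differed 2.86-fold. On the log2 scale this was 1.42 (SE 0.11, 95% interval 1.16 to 1.69, limma adjusted p = 0.003), and the value stayed between 1.35 and 1.51 under the 14 other settings tried. RAB7B lies on chromosome 1 (205976740 to 206003461, minus strand, hg38) and overlaps no exon of another annotated gene.

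RAB9A, which returns mannose 6-phosphate receptors from late endosomes to the Golgi, had 31.1 and 24.9 TPM in libraries labelled sh-ZNF217, against 17.7 and 17.6 TPM in NC. The groups did not overlap, although the libraries labelled sh-ZNF217 differed more from each other than the NC libraries did (log2 fold change 0.63, SE 0.12, limma adjusted p = 0.027). Leaving out NC replicate 1, NC replicate 2 or sh-ZNF217 replicate 1 ended the call (adjusted p = 0.068, 0.065 and 0.092), and RAB9A has 5 annotated pseudogenes that could share its reads. RAB7A had 367 and 354 TPM in libraries labelled sh-ZNF217, against 338 and 366 TPM in NC. Its values overlapped, and the interval of the log2 difference was -0.11 to 0.18. RAB32, known for lysosome-related organelles, showed 26.6 and 31.1 TPM in libraries labelled sh-ZNF217, against 34.9 and 38.1 TPM in NC, with no overlap but an adjusted p of 0.085 in limma (log2 fold change -0.33). Its relative RAB38 was near the floor, at 1.58 and 1.51 TPM in libraries labelled sh-ZNF217 and 0.958 and 1.03 TPM in NC, and did not pass (adjusted p = 0.35). The other members of the class, RAB12, RAB24 and RAB39A, had log2 fold changes of 0.39, 0.10 and -0.07, none of which passed.

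The windows of 250 bases before the start of RAB7B and of RAB7A are shown because RAB7B had the largest log2 fold change of the family while its paralogue RAB7A did not pass the test. They are from RefSeq (GRCh38.p14), at chr1:206003396-206003645 (minus strand) for RAB7B and chr3:128725933-128726182 (plus strand) for RAB7A, and run to the base before the start. Capitals mark TATAAA in RAB7B and GGGCGG in RAB7A.
RAB7B: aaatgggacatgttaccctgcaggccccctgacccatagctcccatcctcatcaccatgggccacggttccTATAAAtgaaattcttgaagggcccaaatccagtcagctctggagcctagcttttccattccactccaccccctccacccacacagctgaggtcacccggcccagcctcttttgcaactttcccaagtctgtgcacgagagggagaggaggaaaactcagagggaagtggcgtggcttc
RAB7A: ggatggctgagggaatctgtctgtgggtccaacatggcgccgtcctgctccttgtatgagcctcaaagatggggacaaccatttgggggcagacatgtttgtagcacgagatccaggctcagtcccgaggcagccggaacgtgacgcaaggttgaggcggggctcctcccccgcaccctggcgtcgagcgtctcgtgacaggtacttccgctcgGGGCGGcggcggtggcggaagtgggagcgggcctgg
A search of both strands for the TATA-box letters TATAAA, the GC-box letters GGGCGG and the CCAAT-box letters CCAAT found TATAAA 179 to 174 bases before the start of RAB7B and GGGCGG 36 to 31 bases before the start of RAB7A, and no other of these matches in either window. These matches are a description of letters. Another annotated start of RAB7B has CCAAT in its window, so the letters found depend on the start shown. RefSeq entries were matched for 38 of the 47 tested members, with 54 windows in all, since some members have several annotated starts. GGGCGG stood in 43 of those 54 windows (79.6%), beside 42.6% of 35114 windows of the same length over all genes, TATAAA in 4 (7.41%, beside 10.7%) and CCAAT in 15 (27.8%, beside 32.0%). The 35114 windows were not limited to genes tested here, as the RAB windows were. Shares over tested genes alone were not computed, so these percentages do not set RAB genes apart from other expressed genes.

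In the exocytosis and granule group, changes ran in both directions. RAB8B rose and RAB37 fell, RAB27B and RAB44 passed the adjusted p in opposite directions without reaching the fold minimum, and the abundant RAB8A, RAB10 and RAB27A did not pass. All 11 members listed were tested, and 1 was called higher and 1 lower (18.2%, beside 8.72% of all genes). The median log2 fold change was 0.07. RAB8B, which carries vesicles from the Golgi to the plasma membrane, had 63.3 and 55.5 TPM in libraries labelled sh-ZNF217, against 40.9 and 37.3 TPM in NC. Both values lay above both NC values (log2 fold change 0.59, SE 0.09, limma adjusted p = 0.016), and the call was lost without sh-ZNF217 replicate 1 (0.50, adjusted p = 0.073) and when GC content and length were corrected for (0.42). RAB37, linked to secretory granules of mast cells, had 36.9 and 41.0 TPM in libraries labelled sh-ZNF217, against 60.8 and 57.3 TPM in NC. It fell by 0.59 on the log2 scale (SE 0.08, limma adjusted p = 0.012), with an adjusted p of 0.058 without sh-ZNF217 replicate 1, and it overlaps annotated genes of the other strand.

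RAB27A and RAB27B both dock secretory granules at the plasma membrane. RAB27B had 37.1 and 34.5 TPM in libraries labelled sh-ZNF217, against 25.7 and 25.6 TPM in NC (log2 fold change 0.46, limma adjusted p = 0.02), while RAB27A had 119 and 104 TPM, against 103 and 109 TPM, so that its groups overlapped (interval of the log2 difference -0.13 to 0.27). With correction for transcript GC content and length RAB27B gave 0.27 and no longer passed (limma adjusted p = 0.0515). RAB44, a large member found in granule-bearing blood cells, had 18.1 and 20.2 TPM in libraries labelled sh-ZNF217, against 26.5 and 26.0 TPM in NC, which gave -0.44 on the log2 scale (adjusted p = 0.035 in limma). RAB8A, the near relative of RAB8B, had 94.1 and 98.0 TPM in libraries labelled sh-ZNF217, against 93.7 and 97.6 TPM in NC, and the interval of its log2 difference was -0.14 to 0.15. RAB10, of GLUT4 vesicle exocytosis, had 108 and 100.3 TPM in libraries labelled sh-ZNF217, against 93.1 and 100.4 TPM in NC, with overlapping groups (log2 fold change 0.11), and RAB3D, of regulated granule release, had -0.30 (adjusted p = 0.20). RAB13 and RAB3C had large but uneven differences. RAB13, of traffic to cell junctions, had 3.40 and 6.52 TPM in libraries labelled sh-ZNF217, against 1.88 and 1.94 TPM in NC (log2 fold change 0.98, adjusted p = 0.075), and RAB3C had 4.04 and 2.09 TPM, against 0.914 and 1.23 TPM (0.93, adjusted p = 0.093).

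The windows of RAB8B and RAB8A are shown as the second pair in which one member was called and the other was not. They are from the same RefSeq table, at chr15:63189356-63189605 and chr19:16111639-16111888, both on the plus strand. Capitals mark GGGCGG and the CCAAT box on either strand.
RAB8B: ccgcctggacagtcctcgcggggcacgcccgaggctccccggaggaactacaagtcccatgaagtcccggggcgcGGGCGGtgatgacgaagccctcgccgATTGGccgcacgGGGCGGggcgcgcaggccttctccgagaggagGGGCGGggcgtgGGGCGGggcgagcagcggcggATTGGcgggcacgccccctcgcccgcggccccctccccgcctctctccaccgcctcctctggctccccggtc
RAB8A: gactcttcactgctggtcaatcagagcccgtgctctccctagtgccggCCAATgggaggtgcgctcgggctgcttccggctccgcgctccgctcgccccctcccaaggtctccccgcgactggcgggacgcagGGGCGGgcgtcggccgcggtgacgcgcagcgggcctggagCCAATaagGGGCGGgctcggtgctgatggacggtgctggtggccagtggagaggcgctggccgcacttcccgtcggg
RAB8B held GGGCGG at 4 places and CCAAT on the other strand at 2 places, and RAB8A held each of them at 2 places on its own strand, so these windows shared both kinds of letters and differed in their number and strand.

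In the ER and Golgi group, 2 of 11 tested members were called (18.2%), beside 8.72% of all genes. The adjusted p alone was passed by 4 of them, beside 16.9% of all genes. RAB2B rose, RAB33A fell, and RAB29 and RAB18 passed the adjusted p short of the fold minimum. The group had 9 of 11 tested members with a positive log2 fold change (81.8%, beside 52.5% of all genes), a median of 0.18, 1 called higher and 1 called lower. RAB33A, a Golgi member, had 3.62 and 3.58 TPM in libraries labelled sh-ZNF217, against 7.02 and 9.52 TPM in NC. Its groups did not overlap, the NC libraries differed from each other, and the log2 fold change was -0.999 (SE 0.19, limma adjusted p = 0.025), with adjusted p-values of 0.088 to 0.091 without NC replicate 2, sh-ZNF217 replicate 1 or sh-ZNF217 replicate 2. RAB2B, of traffic between the Golgi and the ER, had 15.7 and 13.5 TPM in libraries labelled sh-ZNF217, against 10.3 and 9.70 TPM in NC. This was the call nearest to both thresholds (log2 fold change 0.50, SE 0.12, limma adjusted p = 0.047), it was lost without any 1 of the 4 libraries (adjusted p = 0.087 to 0.17), and the gene shares exons with TOX4 on the other strand.

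RAB29, a trans-Golgi partner of the kinase LRRK2, had 68.6 and 70.8 TPM in libraries labelled sh-ZNF217, against 50.02 and 53.3 TPM in NC (log2 fold change 0.43, limma adjusted p = 0.016). RAB18, of ER contacts with lipid droplets, had 29.5 and 27.7 TPM, against 20.2 and 21.0 TPM in NC (0.45, adjusted p = 0.025). With correction for transcript GC content and length RAB18 gave 0.23 and no longer passed (limma adjusted p = 0.096), while RAB29 gave 0.33 (adjusted p = 0.021). Both genes had tight pairs of values in each group. RAB6A, of retrograde Golgi traffic, had 86.6 and 90.2 TPM in libraries labelled sh-ZNF217, against 74.5 and 75.7 TPM in NC, and just missed (0.23, adjusted p = 0.052). RAB1A had 141 and 134 TPM in libraries labelled sh-ZNF217, against 126 and 134 TPM in NC, and RAB2A had 105 and 99.2 TPM, against 88.8 and 90.2 TPM. These abundant members had log2 fold changes of 0.09 and 0.18, and RAB1B had -0.14, and none passed. RAB6D and RAB43, at 0.973 to 6.54 TPM, had overlapping groups. RAB33B, which binds the autophagy protein ATG16L1, had 6.15 and 5.05 TPM in libraries labelled sh-ZNF217, against 3.42 and 3.55 TPM in NC (0.55, adjusted p = 0.088).

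No endosomal member reached the call, beside 8.72% of all genes, and 3 of 14 tested passed the adjusted p, beside 16.9% of all genes. A positive log2 fold change was found for 11 of 14 tested members, with a median of 0.12 and a range of -0.29 to 0.37. In limma 0 were called in either direction, in this fit and under each of the 14 other settings tried, 4 were higher and 1 lower at an unadjusted p below 0.05, and 3 passed the adjusted p, all upward (RAB31, RAB5A and RAB14). RAB31 had 158 and 160 TPM in libraries labelled sh-ZNF217, against 129 and 136 TPM in NC (log2 fold change 0.26, limma adjusted p = 0.031). RAB5A, which drives fusion of early endosomes, had 106 and 94.9 TPM, against 78.3 and 83.0 TPM in NC (0.31, adjusted p = 0.047). RAB14, between Golgi and endosomes, had 77.7 and 71.8 TPM, against 62.0 and 61.5 TPM in NC (0.27, adjusted p = 0.049). In these 3 genes both libraries labelled sh-ZNF217 lay above both NC libraries. None of the 3 passed after correction for transcript GC content and length, where RAB31 gave 0.15, RAB5A 0.19 and RAB14 0.13 on the log2 scale (limma adjusted p = 0.086, 0.096 and 0.165). RAB20, of phagosome maturation, lay on the other side, with 38.3 and 43.2 TPM in libraries labelled sh-ZNF217, against 50.6 and 49.7 TPM in NC (-0.29, adjusted p = 0.064). The recycling member RAB4A had 40.4 and 40.3 TPM in libraries labelled sh-ZNF217, against 38.1 and 39.2 TPM in NC, and RAB11A had 49.0 and 53.2 TPM, against 49.4 and 50.2 TPM. Their log2 fold changes were 0.06 and 0.04, with intervals of -0.11 to 0.23 and -0.14 to 0.21. The remaining endosomal members ran from RAB11B (-0.14) and RAB35 (-0.08) through RAB5C (0.05), RAB21 (0.12), RAB17 (0.12), RAB22A (0.22) and RAB5B (0.23) to RAB4B (0.37) on the log2 scale, and none passed the adjusted p. A search of the promoter windows for CACGTG, the E-box letters, found it in 5 of 54 (9.26%, beside 6.35% of all windows), that of RAB5A among them, 121 to 116 bases before the start.

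The classes were then set side by side. The median log2 fold change was 0.23 in the late endosomal and lysosomal class, 0.12 in the endosomal class and 0.12 in the secretory class. The counts called were 2 of 8, 0 of 14 and 4 of 22 (25%, 0% and 18.2%, beside 8.72% of all genes). The late endosomal and lysosomal class summed to 502 and 492 TPM in libraries labelled sh-ZNF217, against 447 and 477 TPM in NC, the endosomal class to 937.4 and 946 TPM, against 876 and 883 TPM, and the secretory class to 1148 and 1126 TPM, against 1062 and 1090 TPM. The ratios of means were 1.08, 1.07 and 1.06. As shares of all RAB TPM, the late endosomal and lysosomal class took 19.0% and 18.8% in the libraries labelled sh-ZNF217, against 18.3% and 19.0% in NC, the endosomal class 35.4% and 36.1%, against 35.8% and 35.1%, and the secretory class 43.4% and 43.0%, against 43.4% and 43.4%. The shares of the endosomal and of the late endosomal and lysosomal class overlapped between groups, and those of the secretory class differed by under 1 percentage point. No class can be said to differ from another on these values, since the difference between classes was not tested. RAB28, RAB40C and RAB23, the tested members outside these classes, had log2 fold changes of -0.14, -0.04 and 0.20 and did not pass.

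Pairs of paralogues were described by the share of each member. For 9 numbers exactly 2 members were tested, and in 7 of these pairs the share of each member in the pair's summed TPM did not overlap between the groups. Levels of single genes did not overlap for 62.2% of the table, and the share over other gene pairs was not computed, so that the count is a description. In all 7, the member with the smaller share in NC gained share, its share in the libraries labelled sh-ZNF217 being above its own share in NC. RAB7B took 6.60% and 7.31% of the RAB7 pair in the libraries labelled sh-ZNF217, against 2.85% and 2.38% in NC. RAB8B took 40.2% and 36.1% of its pair, against 30.4% and 27.7% in NC, RAB27B 23.8% and 24.8%, against 19.9% and 19.0%, and RAB2B 13.0% and 12.0%, against 10.4% and 9.70%. The rarer member remained the rarer one in these 4 pairs. The RAB33 pair changed its order, since RAB33B took 63.0% and 58.5% in the libraries labelled sh-ZNF217, against 32.7% and 27.2% in NC, at a summed level of only 8.62 to 13.1 TPM. RAB1A (42.2% and 39.8%, against 36.7% and 37.8% in NC) and RAB11A (41.5% and 40.4%, against 38.0% and 37.9%) gave the other non-overlapping pairs. RAB4B overlapped between the groups, at 28.6% and 32.2% in the libraries labelled sh-ZNF217 and 29.1% and 22.5% in NC, and so did the RAB6 pair. The gaining member had the lower transcript GC content in 5 of the 7 pairs, RAB7B and RAB2B being the exceptions. After GC content and length were corrected for, the difference in log2 fold change between the members remained positive in 6 of 7 pairs, at 1.44 for RAB7, 1.38 for RAB33 and 0.45 for RAB8, but was 0.02 for RAB1 and turned to -0.09 for RAB11. The difference within a pair was not tested.

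**Figure D3:**
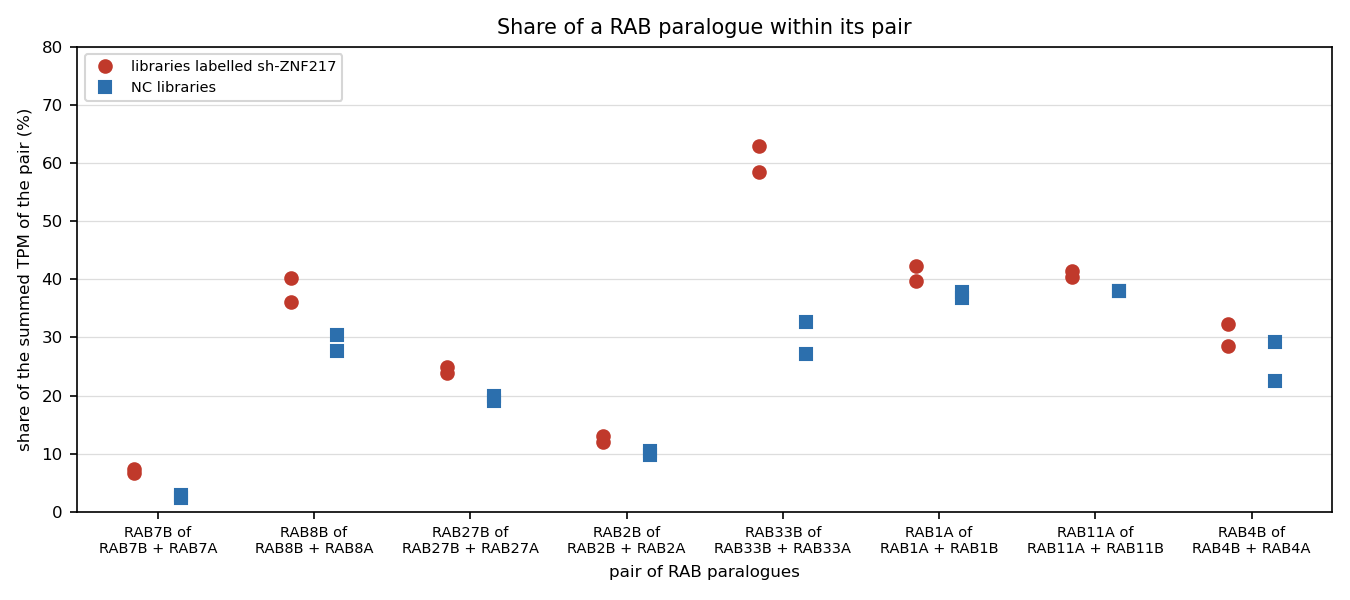
Share of the named RAB gene in the summed TPM of its pair (%), with 1 red circle for each library labelled sh-ZNF217 and 1 blue square for each NC library. The circles lie above the squares in all pairs drawn except RAB4, from RAB7B (6.60% and 7.31%, against 2.85% and 2.38%) to RAB33B (63.0% and 58.5%, against 32.7% and 27.2%).

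Fold changes of the members went with the GC content of their transcripts. Over the 47 members Spearman's rho between the log2 fold change and the GC content of the longest annotated transcript was -0.54 (Pearson's r -0.40), beside -0.22 over 13432 genes of the table. These points are genes of the same 4 libraries and not independent replicates, so the values are a description. Of the 23 members under 45% GC, 21 had a positive log2 fold change, with a median of 0.22, and of the 24 members at 45% or more, 14 did, with a median of 0.03, a split chosen after the values were seen. After correction for GC content and length, rho with GC was -0.22 over the members and 0.02 over all genes, the members' median log2 fold change was 0.07, and RAB7B (1.39), RAB9A (0.51), RAB37 (-0.60) and RAB33A (-0.98) stayed called while RAB8B (0.42) and RAB2B (0.39) did not. The same correction gave 700 genes higher and 460 lower over the table (60.3% of calls higher), beside 913 and 359 without it (71.8%). The part of GC content in the results was not tested further.

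**Figure D4:**
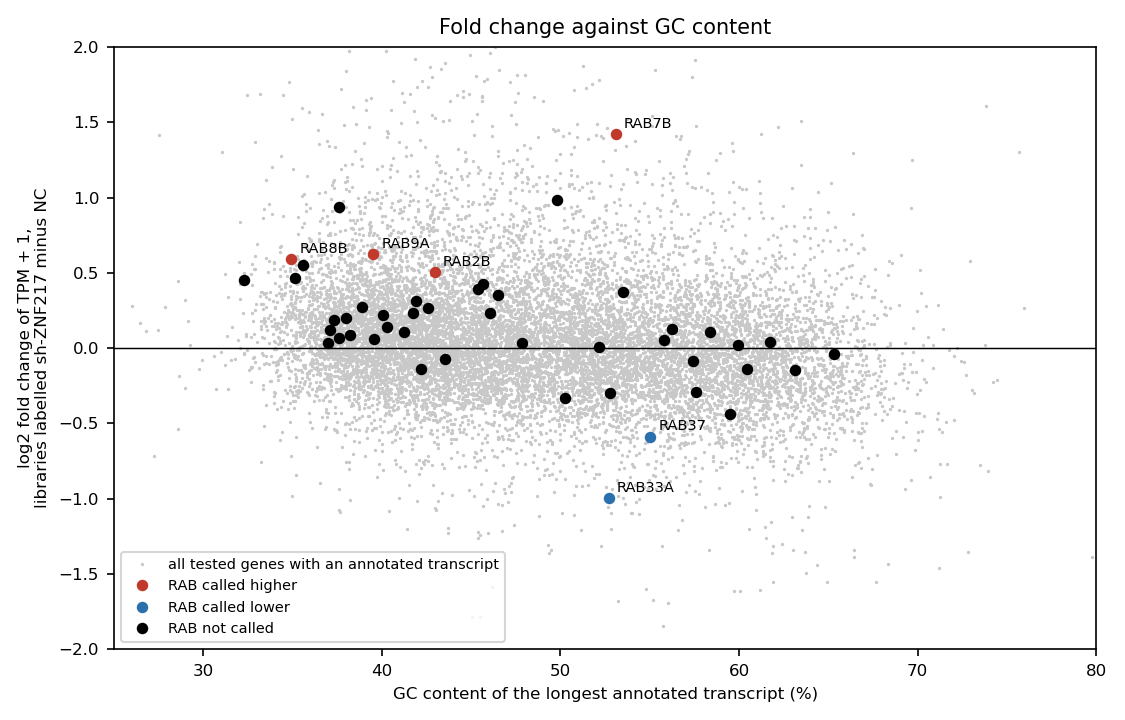
Difference in log2(TPM + 1), sh-ZNF217 libraries minus NC libraries, plotted against the GC content of the longest annotated transcript (%), with grey dots for 13432 tested genes, of which 47 lie outside the axes, and large points for the 47 RAB genes. RAB points lean downward to the right (rho -0.54), with RAB7B above them at 1.42.

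The proteins that act on RAB GTPases were read from 5 lists that hold 133 genes, of which 121 were in the table and 116 were tested. Of these, 11 were called higher and 1 lower (10.3%), beside 8.72% of all genes, 78 of 116 had a positive log2 fold change and the median was 0.11. Among the 8 genes for lipid anchor, escort and GDI, 0 were called in limma, 1 was higher and 1 lower at an unadjusted p below 0.05, and 1 passed the adjusted p, CHM, the escort protein REP1, with 15.8 and 16.4 TPM in libraries labelled sh-ZNF217, against 11.8 and 10.6 TPM in NC (log2 fold change 0.49, adjusted p = 0.039). Of 35 GEFs tested, 4 were called higher and 1 lower (14.3%, beside 8.72% of all genes). The GEFs of RAB35 went both ways, with DENND1A at 26.0 and 27.1 TPM in libraries labelled sh-ZNF217, against 39.1 and 36.9 TPM in NC, and DENND1B at 13.8 and 11.6 TPM, against 8.25 and 7.68 TPM (log2 fold changes of -0.50 and 0.61). RIN2, a GEF of RAB5 proteins, DENND4C, one of RAB10, and RIC1, which acts on RAB6A, rose by 0.68, 0.54 and 0.55 on the log2 scale.

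Among 32 GAPs, 2 were called higher and 0 lower in limma (6.25%), beside 8.72% of all genes. At an unadjusted p below 0.05 there were 10 higher and 0 lower, beside 2750 and 2266 of all 14582 genes. TBC1D8 had 22.4 and 23.7 TPM in libraries labelled sh-ZNF217, against 13.9 and 13.9 TPM in NC (log2 fold change 0.69, limma adjusted p = 0.011), and TBC1D9 had 6.43 and 7.03 TPM, against 3.17 and 3.47 TPM (0.84, adjusted p = 0.026). Among 40 effectors, 5 were called higher and 0 lower (12.5%), with 17 and 3 at an unadjusted p below 0.05, to be read beside the same all-gene values. SYTL3, a synaptotagmin-like protein that binds RAB27, had 18.6 and 23.6 TPM in libraries labelled sh-ZNF217, against 11.4 and 9.99 TPM in NC (0.91, adjusted p = 0.016). PLEKHM2, which couples lysosomes to kinesin, had 94.6 and 104 TPM, against 67.2 and 69.6 TPM in NC (0.53, adjusted p = 0.011). RAB11FIP1 of recycling endosomes, EXOC6 of the exocyst and GCC2 of the trans-Golgi network rose by 0.53, 0.56 and 0.51 on the log2 scale. PPM1H, a phosphatase of RAB proteins, was the only gene of the kinase and phosphatase list to be tested, with 5.52 and 6.3 TPM in libraries labelled sh-ZNF217, against 3.94 and 3.47 TPM in NC (adjusted p = 0.08), and LRRK2 stayed under 1 TPM. The 12 regulator calls were less firm than that of RAB7B, since each was lost without some library and the count became 4 or 5 when NC replicate 1 or NC replicate 2 was left out, 2 when sh-ZNF217 replicate 1 was and 0 when sh-ZNF217 replicate 2 was, with 6 after the GC and length correction.

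Other small GTPases gave the scale for these numbers. ARF, ARL and SAR genes had 0 called higher and 2 lower of 23 tested in limma (8.70%), beside 8.72% of all genes. At an unadjusted p below 0.05 they had 9 and 5, and their median log2 fold change was 0.14. RAS genes had 1 and 1 of 16 called (12.5%), with a median of 0.11. The RAB median of 0.12 lay between these medians, and the difference between families was not tested.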

How the data were processed

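RNA of U937 cells was sequenced in 4 libraries, 2 labelled sh-ZNF217 and 2 labelled NC. The authors aligned filtered reads with HISAT2 (version 2.0.5) to hg38, per the submitters' processing notes. Neither the quantifier and annotation release nor depth and strand setting are named (not given in the sources used here). As its measure the study names FPM and used DESeq2, but the values deposited by the authors behave as TPM (columns summing to 998932 to 999282, lengths divided out), so no count model and no counting interval applied. Each listed gene sums to at least 0.8 TPM. The letters NC or ZNF in column names, with the replicate number, tied columns to samples, and 0 further columns of sample values were present. Column names of all 4 libraries also carry D4, and both of those labelled sh-ZNF217 carry S1. The labels explain neither, so whether these libraries share a construct is not known.

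GENCODE 44 named 16143 of 17656 genes and gave positions, overlaps, and the GC content and length of the longest transcript. Genes with at least 1 TPM in at least 2 libraries (14582) were compared on log2(TPM + 1), a scale that understates changes of low genes, with limma 3.58.1 in R 4.3.3 (group alone, trended and robust empirical Bayes), libraries labelled sh-ZNF217 minus NC, and Benjamini-Hochberg adjustment over all tested genes. The procedure was run on simulated data with independent noise in each library and no GC trend. That setting differs from these libraries, so the simulation cannot vouch for the calls made here. A fold is a ratio of mean TPM. Tried as alternatives were 13 settings (pseudocounts of 0.1 and 0.5, filters, scalings, gene subsets, plain empirical Bayes, a replicate block, each library left out) and, chosen after seeing the data, a spline correction of fold changes for GC content and length.

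Members, classes, lists and motifs were chosen with earlier results of these data known. Named were ZNF217, called members, anchors of each class, members past the adjusted p alone, unlisted or low members, and up to 6 called genes of each regulator list. The other tested members, apart from RAB3A, and the paralogue pairs were added after their values were seen. Promoter windows were taken from RefSeq (GRCh38.p14), and motifs were searched on both strands. Plots were made in Python 3.11.15 (matplotlib 3.10.9). The values of the B cell marker list are not reported here.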

Additional observations from a re-analysis of the deposited data

How the results depend on the processing

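Over the 47 members and 14 alternatives, 650 values were computed. Of these, 601 kept their direction and their side of the threshold, 22 of 5 members lost the call, 4 of 4 members gained it and 23 of 13 members changed sign. With plain empirical Bayes the calls numbered 723 over all genes, 1 among RAB members, 0 secretory, 1 late endosomal and lysosomal, and 2 among regulators. Leaving out 1 library gave 430 to 1029 calls over all genes, 1 to 4 RAB, 0 to 3 secretory, 1 to 2 late endosomal and lysosomal, and 0 to 5 regulator calls, such fits having fewer samples and assuming that the lone sample of a group varies like the other group. Median log2 fold changes then ran over 0.114 to 0.160 (RAB), 0.111 to 0.201 (secretory), 0.093 to 0.152 (endosomal), 0.215 to 0.281 (late endosomal and lysosomal) and 0.106 to 0.138 (regulators). With protein-coding genes alone, where fewer genes are tested, 7 secretory members were called, RAB13, RAB33B and RAB3C being added (adjusted p = 0.039, 0.048 and 0.049). Median-of-ratios scaling gave medians of 0.090 (RAB), 0.098 (endosomal), 0.202 (late endosomal and lysosomal) and 0.082 (regulators), and leaving out mitochondrially encoded genes gave 0.151, 0.153, 0.265 and 0.149. The GC and length correction gave 2 secretory and 6 regulator calls, with medians of 0.071 (RAB), 0.071 (secretory), 0.059 (endosomal) and 0.050 (regulators). Pseudocounts of 0.1 and 0.5 gave endosomal medians of 0.170 and 0.143 and late endosomal and lysosomal medians of 0.263 and 0.256, and the stricter filter gave 0.249 for the last class. Signs changed under the GC and length correction for RAB10 (-0.016), RAB11A (-0.12), RAB1A (-0.051), RAB21 (-0.084), RAB27A (-0.081), RAB40C (0.079), RAB4A (-0.072), RAB7A (-0.047) and RAB8A (-0.033), and under median-of-ratios scaling RAB3A (-0.0013) and RAB8A (-0.027). With 1 library left out, values of both signs were found for RAB11A (-0.022 to 0.092), RAB27A (-0.024 to 0.16), RAB39A (-0.38 to 0.24), RAB3A (-0.16 to 0.20), RAB43 (-0.23 to 0.31), RAB6D (-0.046 to 0.32), RAB7A (-0.023 to 0.092) and RAB8A (-0.023 to 0.035). The cause of these changes was not tested. Replicate numbers did not pair the samples (correlation of deviations -0.00534 over 14582 genes), and a replicate block gave 1049 calls over all genes, 5 among RAB members, with RAB2B lost (adjusted p = 0.066), and 7 among regulators. TPM keeps no depth, so the limit set by reads is unknown, and members under 10 TPM have wide intervals.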
